A study of Rattus norvegicus with 16 samples.

Results

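Expression of 10 genes of microglia, the resident macrophages of the brain, was examined in the prefrontal cortex (PFC) of rats after acute footshock (FS) stress. They were chosen by name and are Aif1, Cx3cr1, C1qa, C1qb, C1qc, Csf1r, P2ry12, Trem2, Tyrobp and Ctss. Each had exactly 1 probe set carrying its symbol alone, so the 10 genes correspond to 10 of 29214 probe sets on the Affymetrix Rat Gene 1.0 ST array. All of them passed the filter on low values, a mean above 4 on the log2 scale over all arrays, and so belonged to the 10423 genes that were tested.

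The arrays came from 8 FS rats and 8 control rats, adult males of the Sprague–Dawley strain. FS rats received inescapable shocks of 0.8 mA, with 20 min of actual shock in a session of 40 min, and were killed when it ended. Control rats stayed in their home cages without disturbance, so the comparison covers the whole session procedure and not the shocks alone. The labels number the replicates within each group without saying more about the animals, and the p-values therefore measure the spread between these arrays.

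Microglia sense their surroundings through surface receptors such as CX3CR1, which binds the neuronal chemokine fractalkine, and P2RY12, which responds to nucleotides released by nearby cells. CSF1R signalling keeps them alive, and TREM2 signals through the adaptor TYROBP when microglia take up lipids and debris. Microglia are also the main source of C1q in the brain, the molecule that starts the classical complement pathway and can tag synapses for removal.

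C1q is built from A, B and C chains encoded by C1qa, C1qb and C1qc. In the rat RefSeq annotation (GRCr8) the genes are neighbours on chromosome 5, in the order Ephb2, C1qb, C1qc, C1qa and Epha8 among protein-coding genes. The 250 bases upstream of the start site were listed for 6 of the 10 genes, namely Cx3cr1, C1qa, C1qb, Csf1r, Trem2 and Ctss, and came from RefSeq with the build GRCr8. Sequences of 3 are shown because C1qa and C1qb formed the most closely correlated pair and Trem2 had the largest difference between FS and control rats. They run 5′ to 3′ in the direction of the gene and cover chr5:154419934-154420183, chr5:154407828-154408077 and chr9:20151780-20152029, all on the minus strand. Capitals mark GAGGAA and GGAAGT, letters found in binding sequences of ETS factors such as PU.1, or their reverse complements TTCCTC and ACTTCC.
C1qa: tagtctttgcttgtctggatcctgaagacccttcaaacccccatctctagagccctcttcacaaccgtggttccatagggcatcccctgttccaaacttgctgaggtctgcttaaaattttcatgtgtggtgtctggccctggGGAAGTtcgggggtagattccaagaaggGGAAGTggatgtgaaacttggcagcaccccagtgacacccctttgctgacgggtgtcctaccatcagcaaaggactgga
C1qb: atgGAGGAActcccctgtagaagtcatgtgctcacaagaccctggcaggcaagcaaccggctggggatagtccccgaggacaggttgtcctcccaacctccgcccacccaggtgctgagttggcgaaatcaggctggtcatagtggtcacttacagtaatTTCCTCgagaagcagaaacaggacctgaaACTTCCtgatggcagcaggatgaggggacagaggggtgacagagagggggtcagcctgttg
Trem2: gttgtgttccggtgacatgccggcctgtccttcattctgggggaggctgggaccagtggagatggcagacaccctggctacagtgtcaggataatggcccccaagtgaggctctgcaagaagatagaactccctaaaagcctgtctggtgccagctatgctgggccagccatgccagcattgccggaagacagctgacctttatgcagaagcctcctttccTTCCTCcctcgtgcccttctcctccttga

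The C1qa sequence held GGAAGT 2 times, beginning 107 and 79 bases before the start site. The C1qb sequence held GAGGAA on the given strand, 247 bases before the start site, and TTCCTC and ACTTCC nearer to it, at 90 and 61 bases. Trem2 had TTCCTC alone, 29 bases before the start site. Csf1r and Ctss also held at least 1 of these motifs, which overlapped each other in Ctss, and Cx3cr1 held none. This made 5 of 6 sequences with a match, while 36.7% of 33469 rat promoters of the same length held either motif (23.3% GAGGAA and 19.2% GGAAGT, both strands). A match in these letters describes the sequence and does not show a bound site.

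Correlations between arrays lay between 0.981 and 0.997 over all probe sets, while the levels of some cell types differed widely between arrays, as given next. No gene of the other lists, which include markers of further cell types, passed the adjusted threshold (0 of 152 tested, limma). All 18 tested genes of oligodendrocytes and myelin had higher means in FS rats (median difference 0.40 on the log2 scale), 17 of them at an unadjusted limma p under 0.05, against 9.32% of all probe sets, and their summed level, as mean deviation, ranged between -0.03 and 0.34 in FS rats and between -0.60 and 0.22 in controls. Of the striatal projection neuron genes, 17 of 18 had higher means in FS rats, with largely overlapping arrays and a summed level of -0.86 to 1.19 in FS rats and -0.82 to 1.51 in controls. Cortical excitatory neuron genes, which mark the labelled tissue, were all above the filter where named (11 of 11), and 10 of them had lower means in FS rats. The microglial values were set against the striatal, myelin and cortical levels by correlation, as given further on. Covariate fits, given with the alternatives, were run for the striatal and myelin levels only. In bulk tissue, a lower value can mean fewer microglia or less RNA in each of them, and these cannot be told apart.

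Among the 10 microglial genes, 2 control arrays stood apart. Control replicate 1 was above the mean of the 16 arrays in 10 of 10 genes and was the highest of all arrays in 7, with a mean deviation of 0.30 on the log2 scale. Control replicate 4 was below the mean in 10 of 10 genes and was the lowest of all arrays in 4, with a mean deviation of -0.21. FS arrays had mean deviations between -0.08 and 0.06 only. Results are therefore also given without both of these controls, a step added after the data had been seen.

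**Figure D1:**
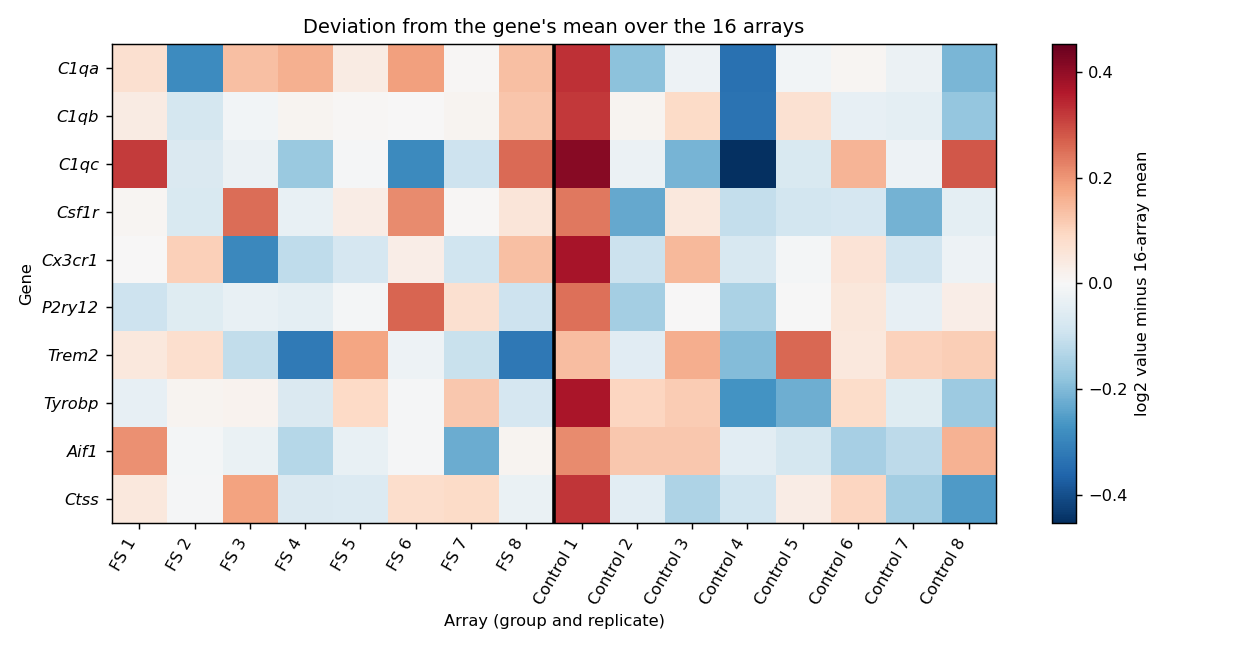
Deviation of each gene (rows) from its own mean over the 16 arrays, in log2 units, for 8 FS arrays and 8 control arrays (columns). Control 1 is above the mean in all 10 genes and Control 4 below it in all 10, while no FS array shifts all genes one way.

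FS and control rats were first compared gene by gene. Values are log2 intensities normalised by RMA, and limma fits a linear model to each probe set with variances moderated over all of them. None of the microglial genes passed the limma test, either after adjustment over all probe sets or at an unadjusted p under 0.05 (0 of 10 in each case). Over all 11352 probe sets tested, 0% passed the adjusted threshold, the smallest adjusted p being 0.495, and 9.32% had an unadjusted p under 0.05 (3.65% higher and 5.67% lower in FS rats). Of the 10 genes, 6 were higher and 4 lower in FS rats, and the FS and control values of every gene overlapped. No count of overlapping groups is given over all probe sets, so the overlap is a description only. The median difference was 0.01 on the log2 scale, against -0.02 over all probe sets, of which 42.5% were higher in FS rats. The 95% intervals of all 10 differences lay between -0.31 and 0.29, which is a range of 0.807-fold to 1.22-fold.

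**Figure D2:**
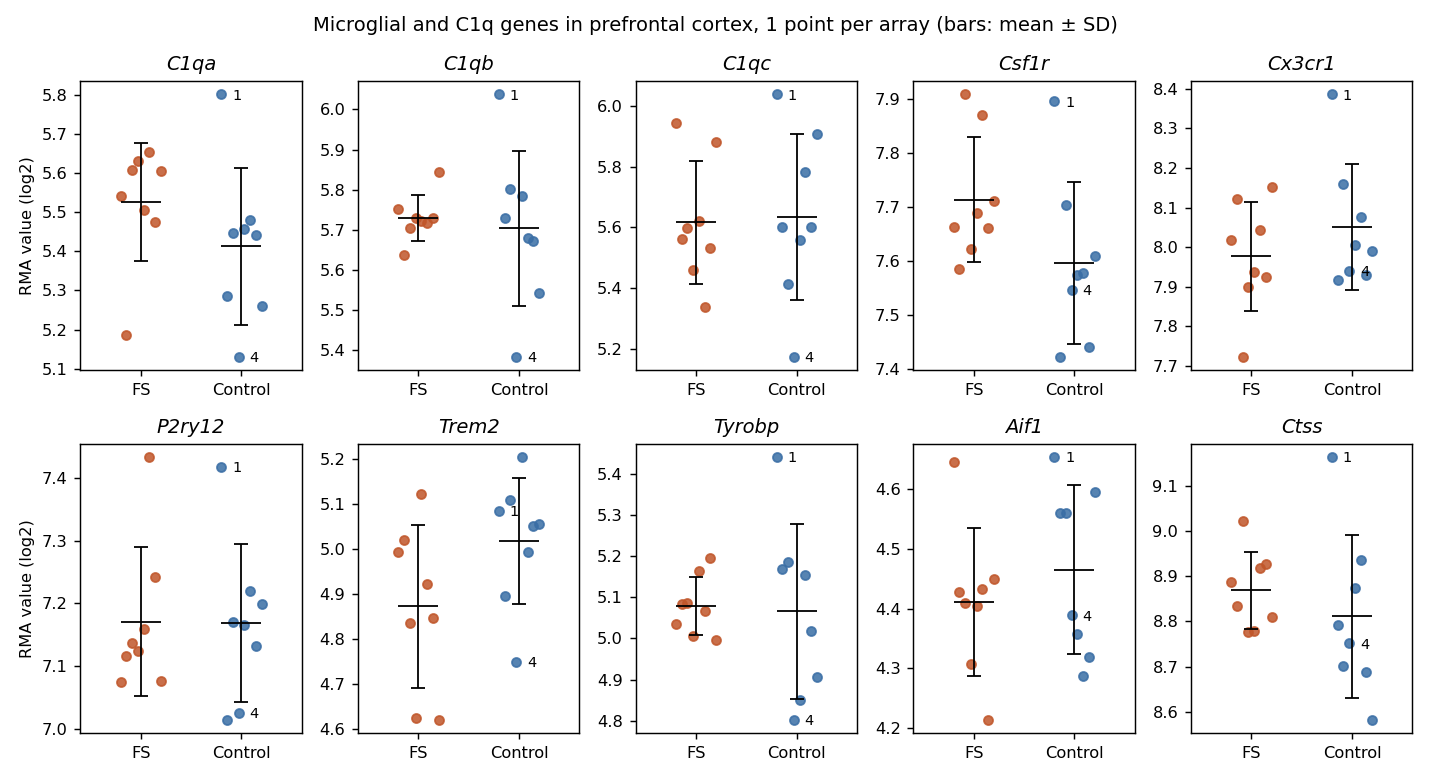
RMA values (log2) of the 10 genes in PFC, 1 point per array, for 8 FS rats (left) and 8 control rats (right) in each panel. Horizontal bars with whiskers give the mean ± SD, and the digits 1 and 4 mark these control replicates. The groups overlap in every panel.

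For each C1q chain the interval of the difference included 0. C1qa measured 5.19, 5.57 and 5.65 in FS rats (lowest, median and highest array) and 5.13, 5.44 and 5.80 in controls. All FS arrays except replicate 2 were above the control mean, and the extremes on both sides were Control replicates 1 and 4. FS rats were higher by 0.11 ± 0.08 in log2 units (SE, n = 8 in each group), with a limma adjusted p of 0.630 and an exact permutation p of 0.225 (two-sided). C1qb measured 5.64, 5.73 and 5.84 in FS rats and 5.38, 5.70 and 6.04 in controls, with the FS values inside the control range. The C1qb difference was 0.03 ± 0.07 (limma adjusted p = 0.905). C1qc measured 5.34, 5.58 and 5.94 in FS rats and 5.17, 5.60 and 6.04 in controls, where the FS values again lay inside the range of the controls. The C1qc difference was -0.02 ± 0.11 (limma adjusted p = 0.962), and its sign turned without Control replicate 1 (0.04). Without Control replicates 1 and 4 together, the differences were 0.13 for C1qa, 0.03 for C1qb and -0.03 for C1qc, with limma adjusted p-values of 0.552, 0.847 and 0.931. With the striatal level as a covariate the C1qa difference was 0.05.

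Among the receptors, Csf1r had the highest difference and Trem2 the lowest of all 10 genes. Csf1r encodes the receptor for CSF1 and IL-34 and measured 7.59, 7.68 and 7.91 in FS rats against 7.42, 7.57 and 7.90 in controls. Of the 8 FS arrays, 7 exceeded the control mean, while Control replicate 1 lay between the 2 highest FS arrays. The difference was 0.12 ± 0.07, with p = 0.101 by exact permutation (two-sided) and a limma adjusted p of 0.563. Trem2, the lipid-sensing receptor, measured 4.62, 4.88 and 5.12 in FS rats against 4.75, 5.05 and 5.20 in controls. FS replicates 4 and 8 were the lowest of all arrays, and 6 of 8 FS arrays were below the control mean. The difference was -0.14 ± 0.08, with an exact permutation p of 0.0974 and a limma adjusted p of 0.554. Of all tested probe sets, 19.3% had a difference larger in size than that of Trem2. Without Control replicates 1 and 4, Csf1r was at 0.16 and Trem2 at -0.18 (limma adjusted p = 0.471 and 0.515). With the myelin level as a covariate the Csf1r difference was 0.06.

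Cx3cr1 and P2ry12 are used to mark microglia in their resting state. Cx3cr1 measured 7.72, 7.98 and 8.15 in FS rats and 7.92, 8.00 and 8.39 in controls, a difference of -0.07 ± 0.07 (limma adjusted p = 0.707). Control replicate 1 gave the highest value and FS replicate 3 the lowest. P2ry12 measured 7.07, 7.13 and 7.43 in FS rats and 7.01, 7.17 and 7.42 in controls, a difference of 0.00 ± 0.06 (limma adjusted p = 0.992). In each group a single array was far above the others, FS replicate 6 and Control replicate 1.

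Tyrobp encodes the signalling partner of TREM2. Its values were 5.00, 5.08 and 5.20 in FS rats and 4.80, 5.09 and 5.44 in controls, with a difference of 0.01 ± 0.08 (limma adjusted p = 0.957). FS arrays were much closer together than control arrays here, as described further on. Ctss, a cathepsin that microglia secrete and use in antigen presentation, measured 8.78, 8.86 and 9.02 in FS rats and 8.58, 8.77 and 9.16 in controls, a difference of 0.06 ± 0.07 (limma adjusted p = 0.769). Aif1, which encodes the microglial stain IBA1, was close to the filter bound at 4.21, 4.42 and 4.65 in FS rats and 4.29, 4.47 and 4.65 in controls, a difference of -0.05 ± 0.07 (limma adjusted p = 0.775). In both genes Control replicate 1 was the highest of the 16 arrays.

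**Figure D3:**
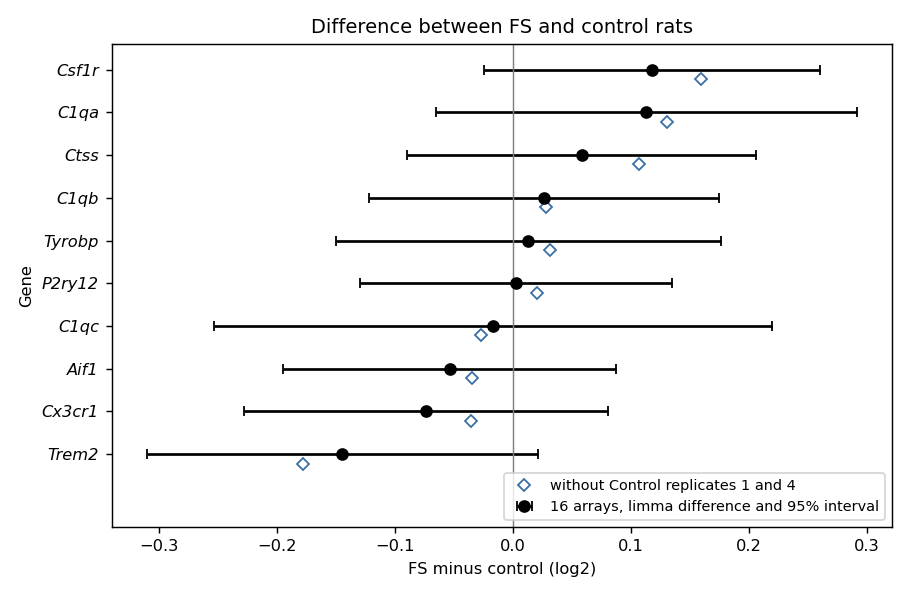
Difference between FS and control rats for each gene, in log2 units, with the 95% interval of the limma fit over 16 arrays (black), and the difference of means without Control replicates 1 and 4 (open diamonds). Every interval includes 0, and Csf1r and Trem2 lie at opposite ends, at 0.12 and -0.14.

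The spread between arrays was compared next, with a test chosen after the data had been seen. The SD between arrays was lower in FS rats for 9 of 10 genes, Trem2 being the exception, and the median ratio of FS to control SD was 0.762, against 1.10 over all probe sets. For Tyrobp the SD was 0.07 in FS rats and 0.21 in controls, a ratio of 0.332, and 0.511% of probe sets had a lower ratio. For C1qb it was 0.06 in FS rats and 0.19 in controls, a ratio of 0.297. An exact permutation test of the distances from the group median (two-sided) gave p = 0.00901 for Tyrobp and p = 0.0430 for C1qb, and 0.0901 and 0.215 after adjustment over the 10 genes, so neither passed. Without Control replicates 1 and 4 the ratio was above 1 for 6 of 10 genes, among them C1qa (1.577) and P2ry12 (1.63), while it was 0.489 for Tyrobp and 0.606 for C1qb (exact permutation p = 0.0316 and 0.191, adjusted 0.316 and 0.492). These arrays were the extremes of the same genes and no FS array was left out, so the control SD had to fall, and the ratios without them are no test of the spread.

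Whether the genes varied together was examined over all 45 pairs, by Pearson's correlation over the 16 arrays with a permutation test (100000 resamples) and adjustment over the 45 pairs. The correlation was positive for 43 pairs, with a median of 0.37, while the median over all pairs of tested genes was 0.06. A correlation of at least 0.5 was reached by 14 pairs (31.1%), compared with 12.5% of all pairs of genes. The points share the arrays, their normalisation and their tissue composition, so these shares are descriptions. C1qa and C1qb were the only pair to pass the adjusted threshold, with r = 0.79 (permutation p = 0.0003, 0.0135 after adjustment) and rho = 0.58 by Spearman's method (permutation p = 0.0206, 0.309 after adjustment). Among 10422 other genes, C1qb ranked at position 20 in its correlation with C1qa, and C1qa at position 6 in its correlation with C1qb.

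The C1qa and C1qb relation was of the same sign within each group. It was r = 0.62 in the 8 FS arrays (exact permutation p = 0.164) and r = 0.92 in the 8 control arrays (exact permutation p = 0.00407), before adjustment over the 45 pairs, and neither passed after it (0.847 in FS rats and 0.0610 in controls). Control replicates 1 and 4 were the arrays farthest from the C1qa median, and without both r was 0.56 (permutation p = 0.0386, adjusted 0.579). The third chain followed less closely. C1qc had r = 0.37 with C1qa (permutation p = 0.156, adjusted 0.301) and r = 0.52 with C1qb (permutation p = 0.0357, adjusted 0.146), and without these 2 controls the values were -0.16 and -0.18.

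**Figure D4:**
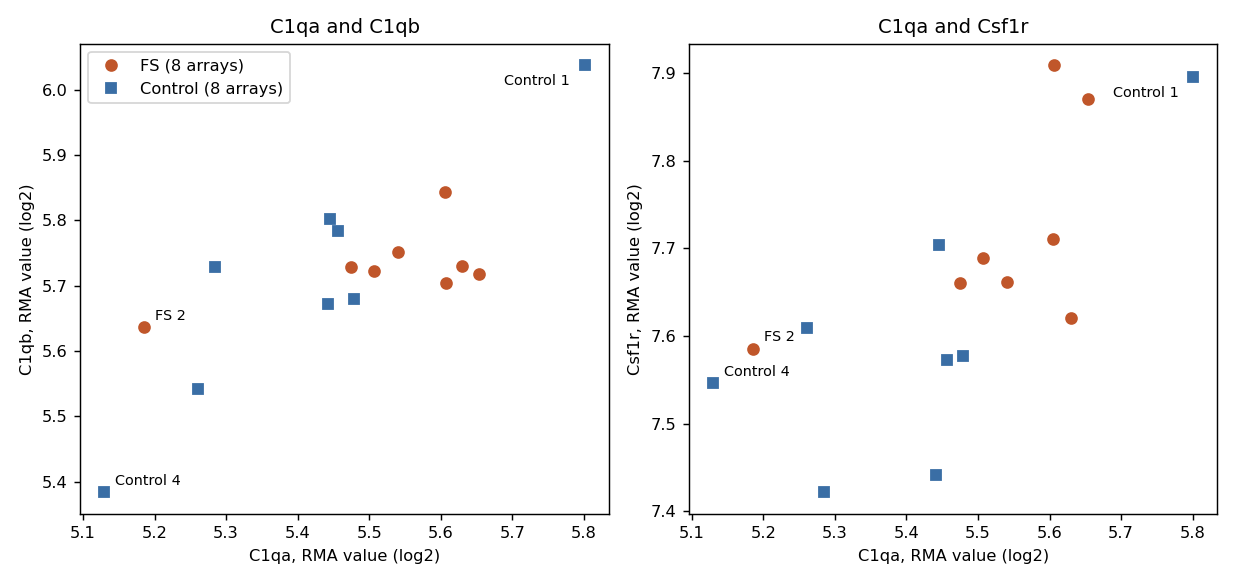
RMA value (log2) of C1qa on the horizontal axis against C1qb (left panel) and Csf1r (right panel), for 8 FS arrays (circles) and 8 control arrays (squares). Control 1 lies at the upper end and Control 4 at the lower end of the C1qa and C1qb relation (r = 0.79), and FS 2 is the lowest FS array in C1qa.

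The next pairs did not pass the adjusted threshold. C1qa and Csf1r had r = 0.70 and rho = 0.76 (adjusted permutation p = 0.0549 and 0.0508), r = 0.59 in FS rats and r = 0.70 in controls, and r = 0.62 without Control replicates 1 and 4. Of the 14 pairs with r of at least 0.5, it moved least when these arrays were left out. C1qb and Tyrobp had r = 0.70 (adjusted permutation p = 0.0687), but -0.41 in FS rats against 0.81 in controls, and 0.14 without the 2 arrays. Csf1r correlated with P2ry12 at 0.64 and with Ctss at 0.63 (adjusted permutation p = 0.0687 for both). Trem2 stood furthest from the rest, with a median correlation of 0.21 with the other 9 genes and of 0.22 with its partner Tyrobp.

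The same correlations were then taken within each group. In FS rats 25 pairs were positive and 20 negative, with a median of 0.02 and none past the threshold (exact permutation test with adjustment, 1 pair at an unadjusted p under 0.05). In controls all 45 pairs were positive, with a median of 0.61, and 1 pair passed the adjusted threshold, Cx3cr1 and Csf1r at r = 0.95 (exact permutation p = 0.000546, adjusted 0.0246), which in FS rats had r = -0.44. The difference between the groups was not tested. Counts and medians over all pairs of genes are not given within each group, so those of the microglial genes are descriptions only. Without Control replicates 1 and 4 the median over the remaining 14 arrays was -0.01, with 22 positive and 23 negative pairs, where leaving out the extremes of these same genes lowers the correlations by itself. Without Control replicate 1 alone it was 0.17, and no pair passed.

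**Figure D5:**
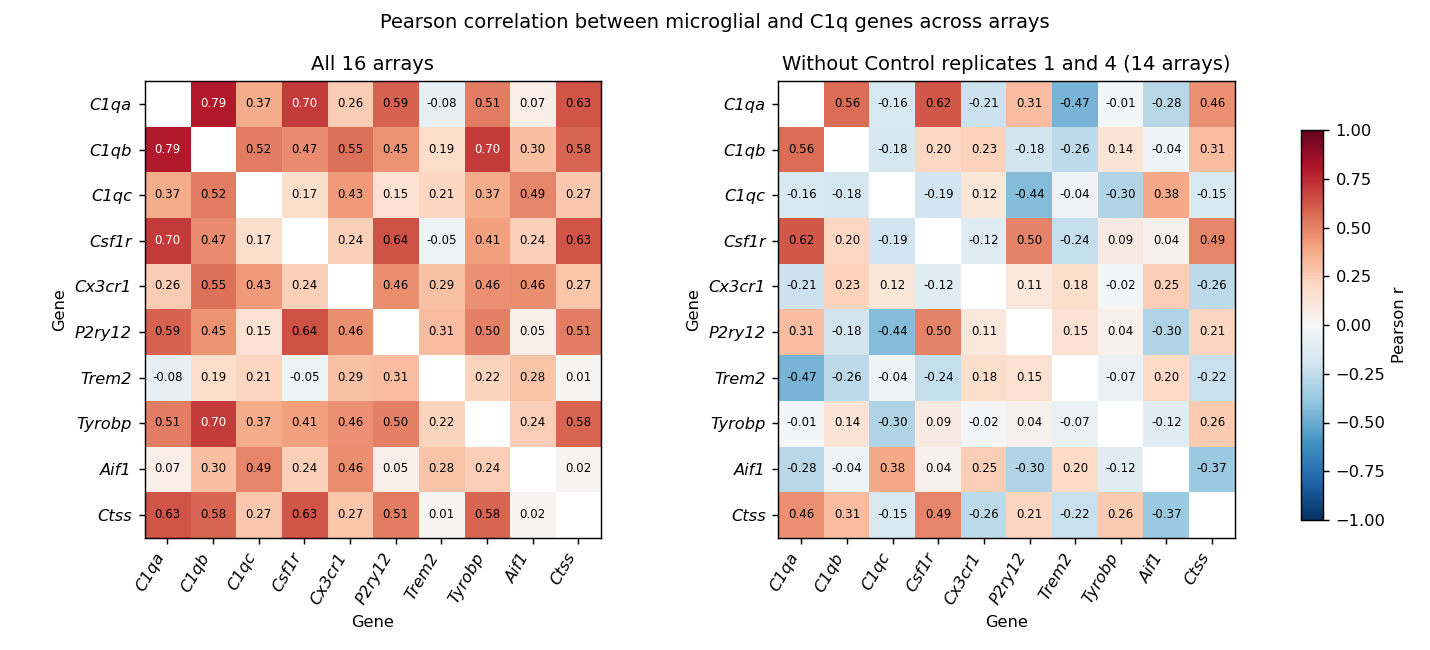
Pearson correlation between each pair of the 10 genes over all 16 arrays (left) and over 14 arrays without Control replicates 1 and 4 (right), with the value printed in each cell. The median of the 45 pairs is 0.37 on the left and -0.01 on the right, and C1qa with Csf1r (0.62) and C1qa with C1qb (0.56) remain among the higher values.

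Each gene was also set against summed levels of other cell types, which made 60 relations. Only Csf1r with the astrocyte genes passed the adjusted threshold, with r = 0.75 (permutation p = 0.00065, adjusted 0.0390) and rho = 0.73 (permutation p = 0.00206, adjusted 0.124). It was 0.67 in FS rats and 0.85 in controls (exact permutation p = 0.0773 and 0.00947, unadjusted). Without the 2 arrays farthest from the median astrocyte level, FS replicate 6 and Control replicate 2, r was 0.62. Without Control replicate 1 it was 0.70 and no longer passed (adjusted permutation p = 0.190). The astrocyte level correlated positively with 10 of 10 microglial genes (median r = 0.43), from 0.14 for Trem2 to 0.75 for Csf1r. Without Control replicate 1 these values ran from 0.07 for Trem2 to 0.70 for Csf1r, with 0 past the adjusted threshold. The oligodendrocyte and myelin level correlated positively with 5 of 10 (median r = 0.03) and the striatal neuron level with 8 of 10 (median r = 0.20). For the endothelial level it was 7 of 10 (median r = 0.22) and for the perivascular macrophage level 5 of 10 (median r = -0.04). The cortical excitatory neuron level correlated negatively with 7 of 10 and positively with 3 (median r = -0.17). Astrocyte genes themselves had a mean deviation of 0.02 ± 0.10 in FS rats against -0.02 ± 0.09 in controls (SD, n = 8 in each), and their part in the microglial values was not tested.

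Genes most like the microglial group were sought by the correlation of their group-centred values with the mean of the 10 genes over the 16 arrays. The closest of 10413 other genes were Git2 (r = 0.93), which encodes an ARF GTPase-activating protein, Slc25a18, a mitochondrial glutamate carrier (0.87), RT1-DMb, an antigen-loading molecule of MHC class II (0.87), Gse1 (0.85), the histone deacetylase gene Hdac5 (0.85), Maml2, a coactivator of Notch signalling (0.85), Map2, a microtubule protein of dendrites (0.85), Sox4 (0.84), Akna (0.84) and Shisal1 (0.84). None of these 10 belonged to the gene lists used here. Only 3 of them, Git2, Slc25a18 and Maml2, remained among the 10 closest without Control replicate 1. Of 23 other microglial genes, 19 correlated positively with the mean, with a median of 0.39 against -0.03 over all other genes, and without Control replicate 1 the medians were 0.14 and -0.01. Spi1, which encodes PU.1, had r = 0.69 and Tmem119, a marker specific to microglia, had r = -0.05.

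The wider set of microglial genes was also compared between FS and control rats. Of 23 tested, 12 were higher and 11 lower in FS rats. The median difference was 0.00, with 1 gene at an unadjusted p under 0.05, against the background of 9.32%. That gene was Siglec5, a sialic acid receptor, at -0.17 ± 0.07, with all 8 FS arrays below the control mean (limma adjusted p = 0.516). Olfml3, a secreted matrix protein, differed by 0.32 ± 0.16, or 0.17 ± 0.10 without FS replicate 3, and the transcription factor gene Mef2c, which neurons express as well, by -0.29 ± 0.17, or -0.18 without FS replicate 8. Neither passed (limma adjusted p = 0.543 and 0.566).

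Ligands of the receptors were all above the filter. Csf1, a ligand of CSF1R, averaged 6.01 ± 0.15 in FS rats against 5.82 ± 0.13 in controls (SD, n = 8 in each) and exceeded the control mean in 7 of 8 FS arrays, the difference being 0.19 ± 0.07 (limma unadjusted p = 0.0157, adjusted p = 0.509). The other CSF1R ligand, Il34, differed by -0.08 ± 0.07 (limma adjusted p = 0.652). Cx3cl1, which encodes fractalkine, averaged 10.27 ± 0.25 in FS rats and 10.46 ± 0.10 in controls, a difference of -0.19 ± 0.09 (limma adjusted p = 0.532). TREM2 binds lipoproteins, and the apolipoprotein genes Apoe and Clu differed by -0.04 ± 0.07 and -0.01 ± 0.04. No ligand passed the adjusted threshold.

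Further along the complement cascade, 9 genes were tested and none had an unadjusted limma p under 0.05, with 6 higher and 3 lower in FS rats and a median difference of 0.07. C1r, a protease that C1q activates, differed by 0.25 ± 0.15 and C3, the central component, by 0.26 ± 0.13 (limma adjusted p = 0.566 and 0.540). Serping1, the inhibitor of C1, was at 0.31 ± 0.22 (limma adjusted p = 0.617). Without FS replicate 3, the array with the highest summed level of meningeal fibroblast genes in FS rats (1.51), these differences were 0.16 for C1r, 0.21 for C3 and 0.16 for Serping1, and the part of that level in them was not tested. The receptor gene C3ar1 was at -0.11 ± 0.07, and Itgb2, which encodes the common chain of complement receptors on microglia, at -0.07 ± 0.09. C1s and Itgam were below the filter, at 2.81 in FS rats against 2.73 in controls and at 3.72 in FS rats against 3.68 in controls. C4a and C4b were unnamed in the annotation used here and were not analysed.

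No lysosomal or inflammatory gene passed the adjusted threshold. Of 13 cathepsin and lysosomal genes, 6 were higher and 7 lower in FS rats, with 1 of 13 at an unadjusted p under 0.05, against 9.32% of all probe sets. This was Lamp2, a lysosomal membrane protein, at 0.17 ± 0.06 exceeding the control mean in all 8 FS arrays (limma adjusted p = 0.503), followed by Ctsc at 0.16 ± 0.10 and Ctsh at 0.15 ± 0.08. Without FS replicate 3 these were 0.15 for Lamp2, 0.10 for Ctsc and 0.08 for Ctsh. Of 26 named genes of reactive microglia and inflammation, 18 were below the filter, among them Il1b, Tnf, Il6 and Ccl2. None of the 18 had an unadjusted limma p under 0.05 when the filter was lifted, against 1468 of all 18644 probe sets in that fit. The 8 that were tested had 5 higher and 3 lower in FS rats, with Lpl, the lipoprotein lipase, at 0.72 ± 0.38, Ptgs2, an inducible prostaglandin synthase that cortical neurons also express, at -0.47 ± 0.28 and Cd74 at 0.14 ± 0.28 (limma adjusted p = 0.551, 0.566 and 0.866). The sign of Cd74 rested on FS replicate 3, without which it was -0.11. With each array left out in turn, Lpl ranged from 0.58 without FS replicate 3 to 0.96 without Control replicate 6, its highest array.

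Macrophages outside the parenchyma and blood cells can share transcripts with microglia. Of 8 named markers of perivascular macrophages, 6 were below the filter, including Cd163 and Pf4, and the tested ones, Mrc1 and Lyve1, differed by 0.20 ± 0.13 and -0.06 ± 0.08 (limma adjusted p = 0.594 and 0.781), Mrc1 by 0.10 without FS replicate 3. Their summed level ranged between -0.18 and 0.38 in FS rats and between -0.31 and 0.24 in controls. Blood genes above the filter were Hbb-b1 and Hbb, near-identical globin genes that probes may not tell apart, and the erythroid gene Alas2, all higher in FS rats by 0.29 ± 0.20, 0.23 ± 0.21 and 0.20 ± 0.16 and none past the threshold (limma adjusted p = 0.607, 0.681 and 0.639), at a summed level of -0.76 to 0.53 in FS rats and -0.47 to 0.42 in controls. Of 13 named blood genes, 10 were below the filter, among them markers of neutrophils and lymphocytes such as S100a8 and Cd3e.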

How the data were processed

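The deposited values were log2 intensities that the authors had normalised by RMA with oligo (1.58.0). RMA makes array distributions alike, so a shift common to an array cannot be seen. Names came from the platform annotation. Of 29214 probe sets, 18644 had 1 symbol, and 11352 of these had a mean above 4, the bound the authors used, and were tested. The number of arrays limits the precision (median SE of a difference 0.07).

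The groups were compared with limma (3.58.1, lmFit and eBayes, group only, R 4.3.3) with Benjamini-Hochberg adjustment over all probe sets, and by exact permutation over 12870 assignments (smallest p 0.000155). A summed level is the mean over a list's tested genes of each value's deviation from that gene's 16-array mean. Scripts were tested on simulated data.

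The 10 genes and the gene lists were chosen with earlier results of these data known. Named genes are the 10, the 3 largest differences of each immune list, receptor ligands, set complement genes and the 10 genes most like the mean. Spi1, Tmem119, Drd1, Drd2 and examples below the filter were named after their values were seen. Neural and vascular lists are given, where shown, as levels, counts, median differences or correlations. Alternatives were other filters, centring, probe set rules, variance models, array weights, a replicate block, striatal and myelin covariates and each array left out. Analyses without Control replicate 1, for correlations, of further named genes without each array, and without Control replicates 1 and 4 were added after seeing the data.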

Additional observations from a re-analysis of the deposited data

Results flagged for a closer look

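Of 68 groups of 8 arrays tested (the 10 genes and the other named genes, in FS and in control rats), 8 held an array far from the rest. For independent groups, chance alone marks about 1 in 20. That rate does not apply here, because genes share arrays and many further genes were named for large differences, which a far array can enlarge. Among the 10 microglial genes these were C1qa in FS replicate 2, at 5.185 while other FS arrays measured 5.47 to 5.65, and P2ry12 in FS replicate 6, at 7.434 against 7.07 to 7.24. In FS replicate 3, 4 of the further named genes were far above the other FS arrays: Olfml3 at 5.259 (others 3.79 to 4.45), Ctsc at 4.573 (3.99 to 4.23), Cd74 at 7.493 (4.95 to 6.07) and Mrc1 at 4.948 (3.81 to 4.29). The same array had the highest summed level of meningeal fibroblast genes in FS rats, 1.51, and the part of that in these values was not tested. Csf1 was low in FS replicate 2, at 5.701 against 5.95 to 6.16 in the other FS arrays. Ptgs2 was low in Control replicate 6, at 6.636 against 7.91 to 8.47 in the other controls. The same array was the highest of all in the striatal genes Drd1 (8.63, control median 5.21) and Drd2 (8.68, control median 5.05). The part of tissue makeup in the Ptgs2 value was not tested.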

How the results depend on the processing

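No alternative brought any of the 10 genes past the adjusted threshold, the lowest adjusted limma p being 0.330 (Csf1r). It came from array weights, with Csf1r at 0.15 ± 0.06 (SE), and the replicate block gave Trem2 at -0.14 ± 0.06. Unadjusted p-values of the 10 genes are not given for the alternatives, so their count at that level holds for the main fit only. Of the recomputed differences, 258 kept their sign and 20 turned, in C1qb, C1qc, P2ry12, Tyrobp and Ctss. Aif1, Cx3cr1, C1qa, Csf1r and Trem2 kept their sign throughout, but only Trem2 stayed within 1.5 times its value. Without Control replicate 1, Cx3cr1 was -0.03, Aif1 -0.03 and Ctss 0.11. With the striatal covariate C1qa was 0.05, Csf1r 0.08 and Ctss 0.0007, and with the myelin covariate Csf1r was 0.06. P2ry12 was -0.0057 with arrays centred on their median (5 of the 10 genes higher in FS rats), -0.0235 with the striatal covariate and -0.0263 with the myelin covariate. Tyrobp was -0.0053 with the striatal covariate, and Ctss -0.0251 with the myelin one. With each array left out in turn, C1qb ranged from -0.0200 to 0.0735, C1qc from -0.0835 to 0.0404, P2ry12 from -0.0354 to 0.0379 and Tyrobp from -0.0248 to 0.0666, and the number of genes higher in FS rats from 3 (without Control replicate 4) to 7.

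Probe sets at an unadjusted p under 0.05 numbered 1058, 470 with the striatal covariate and 291 with the myelin covariate, and 647 (without FS replicate 3) to 1870 (without Control replicate 6) with 1 array left out. Calls after adjustment ranged from 0 to 1, the 1 being Apold1 without FS replicate 2, at 0.73 ± 0.10 (SE). The replicate block gave 0 calls and 1242 at the unadjusted level, and altered no sign. Deviations of arrays with the same number correlated at -0.31 to 0.49 over all tested probe sets. Of 8 FS arrays, 2 correlated best with the control of their own number. The block lowered the SE most for C1qc (0.112 to 0.073), Aif1 (0.067 to 0.049) and Trem2 (0.079 to 0.061). It raised the SE for Cx3cr1 (0.073 to 0.076) and C1qb (0.071 to 0.072). The labels do not say whether equal numbers mark pairs. C1qa and C1qb were the 1 pair past the threshold; 0 pairs passed with Spearman's rho, within FS rats, without the 2 farthest arrays, without Control replicate 1 or without Control replicates 1 and 4. Without both controls, SD ratios of FS to control turned above 1 for Cx3cr1 (1.5), C1qa (1.577), C1qc (1.17), Csf1r (1.09) and P2ry12 (1.63). Of the further named genes, with each array left out in turn, Apoe ranged from -0.0689 to 0.0020 (without Control replicate 1) and Cd74 from -0.1072 (without FS replicate 3) to 0.2558, and the others kept their sign, an analysis added after seeing the data. With a filter at a mean above 5, Aif1 and Trem2 had no value.

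These are bulk values of 8 arrays per group, and the 95% intervals do not exclude shifts of up to 0.807-fold for Trem2 or 1.22-fold for C1qa. Aif1 and Trem2 lay nearest the filter bound. The labels give no batch.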
